A study of Homo sapiens with 12 samples.

Results

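The genes described here are EPHA2, a receptor tyrosine kinase of the Eph family, and 7 genes that encode its ligand family, the ephrins: EFNA1, EFNA3, EFNA4, EFNA5, EFNB1, EFNB2 and EFNB3. They were taken by symbol from a table of 56634 genes. All 8 were present, and all 8 were among the 14822 genes that passed the low-count filter. The choice used the data, since EFNA1 had been seen to rise with TNFα, so the contrast of TNFα with vehicle is given for these genes as a description without a test.

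Ephrins and Eph receptors are both held at the cell surface, and they signal when neighbouring cells touch. Ephrins of class A are tethered to the membrane by a lipid anchor and mainly bind EphA receptors, whereas ephrins of class B span the membrane and mainly bind EphB receptors. Binding drives kinase signalling in the cell that bears the receptor (forward signalling) and, for many ephrins, a signal in the cell that bears the ligand (reverse signalling). Ephrin-A1, the product of EFNA1, was first isolated as a product induced by TNFα in endothelial cells, and EPHA2 is its best known receptor.

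RNA was sequenced in bulk from HEK293, an established line of human embryonic kidney cells that carries adenovirus sequence, with 3 biological replicates in each of 4 groups. The TNF_SnxB group received 1 µM Senexin B for 1 h and then 10 ng/mL TNFα, an inflammatory cytokine that activates NF-kB, for 2 h. The TNF group received the same TNFα for 2 h after 1 h in 0.1% DMSO. The SnxB group received 1 µM Senexin B alone for 3 h. The DMSO group received 0.1% DMSO, the vehicle, for 3 h. Senexin B blocks the kinase activity of CDK8 and CDK19, paralogous kinases that associate with the Mediator complex. The design asks how TNFα and the kinase inhibitor, alone and together, change transcript levels.

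Library totals ran from 8705277 to 50943310 counts, with TNF library 2 the deepest at 4.87 times the median of the others, and the 8 genes had 35 to 4129 counts in a library. The HEK293 label was checked on a list of 6 markers, of which VIM, KRT8, KRT18 and NEFL passed the filter, with 503, 154, 82.4 and 56.9 CPM (counts scaled to a library of 1000000) in DMSO, while PAX2 and NEFM did not. None of 4 leukocyte and none of 4 endothelial markers passed, and of 4 fibroblast markers COL1A1 passed. TNF_SnxB libraries 2 and 3 stood apart from the rest. Across genes, the deviation of a library from the mean of all libraries correlated with transcript GC content at a Spearman coefficient of -0.683 and -0.682 in these 2 libraries, against 0.134 in TNF_SnxB library 1 and -0.117 to 0.448 in the other 9. By GC content of the longest transcript 6 of the 8 genes lay at percentiles 80.0 to 89.6 of the tested genes with a GC value. EFNB2 lay at percentile 55.0 and EFNA5 at 29.8. Fold changes that use the TNF_SnxB group are therefore given also after a GC and length correction and with library 1 alone standing for the group. With library 1 alone the spread comes from the other 3 groups, and the lone library is assumed to vary as they do, so its p-values rest on that assumption.

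The promoters of EFNA1, EPHA2 and EFNB2 are shown because these genes carry most of the differences described below. The sequences come from RefSeq (GRCh38.p14), whose promoter table holds 7 of the 8 genes and lacks EFNB3. Each is the 250 bases upstream of the RefSeq start, read on the strand of the gene. Capitals mark matches to the GC box GGGCGG on either strand and, in EPHA2, to the cyclic AMP response element TGACGTCA. EFNA1 lies at chr1:155127626-155127875 (plus strand), EPHA2 at chr1:16156070-16156319 (minus strand) and EFNB2 at chr13:106535663-106535912 (minus strand).
EFNA1: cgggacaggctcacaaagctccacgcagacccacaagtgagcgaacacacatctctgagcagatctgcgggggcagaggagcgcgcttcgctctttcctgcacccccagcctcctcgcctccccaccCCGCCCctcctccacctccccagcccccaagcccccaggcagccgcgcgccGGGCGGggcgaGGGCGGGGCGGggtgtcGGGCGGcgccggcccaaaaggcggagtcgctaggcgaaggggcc
EPHA2: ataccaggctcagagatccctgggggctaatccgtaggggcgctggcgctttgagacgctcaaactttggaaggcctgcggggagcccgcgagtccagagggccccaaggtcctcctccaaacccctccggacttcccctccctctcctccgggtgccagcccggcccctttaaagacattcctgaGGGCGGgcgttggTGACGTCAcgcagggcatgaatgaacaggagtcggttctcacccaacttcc
EFNB2: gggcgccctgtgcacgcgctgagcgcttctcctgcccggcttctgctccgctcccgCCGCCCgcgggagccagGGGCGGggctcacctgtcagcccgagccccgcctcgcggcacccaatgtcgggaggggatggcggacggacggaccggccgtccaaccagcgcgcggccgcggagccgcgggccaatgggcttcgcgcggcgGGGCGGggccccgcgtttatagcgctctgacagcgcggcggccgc

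Motifs were searched on both strands in the 300 bases from 250 before to 50 after the start. EFNA1 held 5 matches to the GC box, at -123, -72, -61, -56 and -44 from the start, of which the matches at -61 and -56 overlap by 1 base. EFNB2 held 3, at -194, -177 and -45, and EPHA2 held 1, at -64, beside its TGACGTCA match at -51. Of 35116 RefSeq promoters of this length, 45% held a GC box and 1.85% held TGACGTCA. The NF-kB consensus, present in 5.91% of promoters, and the AP-1 motif TGANTCA, present in 7.71%, had no match in the 7 windows, which says only that these letters are not there. The box CCAAT, present in 34.6% of promoters, matched in EFNA4, EFNB1 and EFNB2. The RefSeq start of EFNA1 lies 416 bases inside the gene as GENCODE 29 draws it, while those of EPHA2 and EFNB2 lie 18 and 0 bases from the GENCODE start.

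Compared per length of exons, EFNA1 was the most abundant of the 8 transcripts after TNFα and the fourth without it. In CPM per kilobase of exons EFNA1 averaged 22.3 ± 2.36 in TNF_SnxB, 22.5 ± 0.156 in TNF, 6.79 ± 0.0360 in SnxB and 7.33 ± 0.703 in DMSO (SD, n = 3 each). EFNB2, a transmembrane ligand of EphB4 and other receptors, came next after TNFα with 12.2 in TNF_SnxB and 15.9 in TNF, and led in SnxB with 13.9 and in DMSO with 18.3. EPHA2 followed with 11.4, 13.0, 8.38 and 9.51 in TNF_SnxB, TNF, SnxB and DMSO, and EFNB1 with 8.13, 11.5, 8.50 and 10.5. The libraries of EFNB2 and EPHA2 overlapped in TNF_SnxB, and those of EFNB1 and EPHA2 in SnxB and in DMSO, so the order of these neighbours is not separated by the spread. EFNA4, EFNB3 and EFNA5 had between 4.89 and 5.77 CPM per kilobase in every group and overlapped with each other in neighbouring ranks, and EFNA3 was lowest in each group, at 2.30 to 3.13. With the longest transcript as the length, EFNA1 had 9.66 in DMSO. That transcript has 1926 bases, beside 2539 bases of exons, against 3964 and 4159 for EPHA2 and 3314 by both for EFNB1. By this length EFNA1 stood above EPHA2 and EFNB1 in SnxB. Its place among the 8 without TNFα thus depends on the length used.

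**Figure D1:**
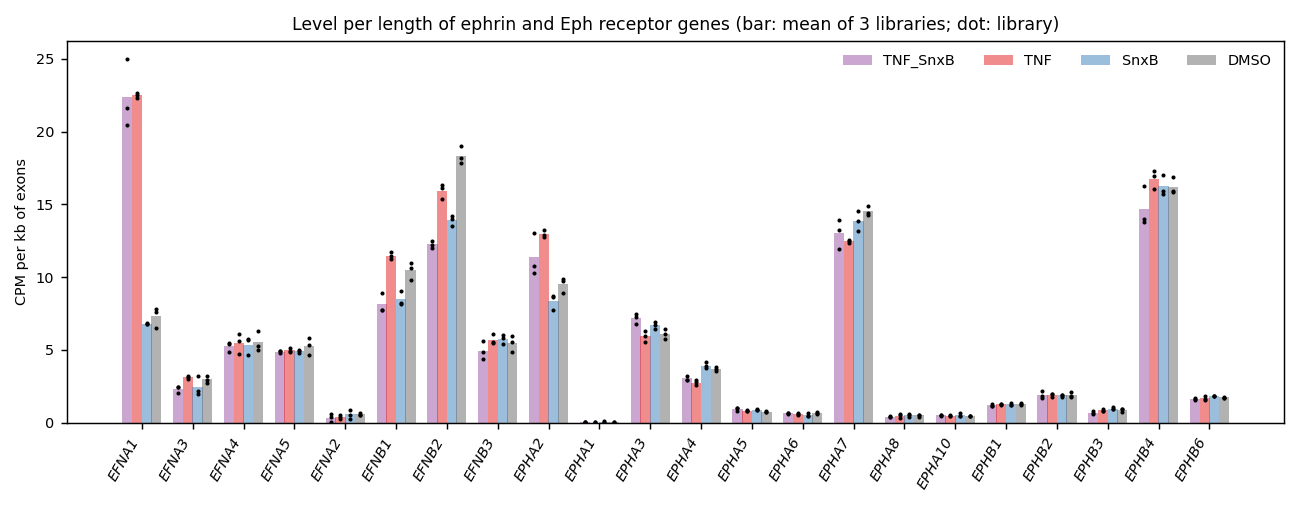
Level per length (y axis, CPM per kilobase of exons) of the ephrin genes, EPHA2 and the other Eph receptor genes (x axis). Bars are means of 3 libraries and dots are libraries, in the order TNF_SnxB, TNF, SnxB and DMSO. EFNA1 stands at 22.3 and 22.5 in the TNFα groups, against 6.79 in SnxB and 7.33 in DMSO, and among the other receptors EPHB4 and EPHA7 are the most abundant in DMSO at 16.2 and 14.5.

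EFNA1 made up 64.1% ± 2.30 of the summed per-length level of the 4 ephrin-A genes in TNF_SnxB and 62.4% ± 1.57 in TNF, against 34.9% ± 2.27 in SnxB and 34.7% ± 2.96 in DMSO (SD, n = 3 each). The ratio of EFNA1 to EPHA2 per length was 1.97 in TNF_SnxB and 1.73 in TNF, against 0.813 in SnxB and 0.774 in DMSO. By length of exons, the level of the ligand exceeded that of the receptor in every TNFα library and in no other library. With the longest transcript as the length the ratio is higher in every library. It then passes 1 also in DMSO library 3 (0.880 by exons) and SnxB library 2 (0.877 by exons). The separation at 1 thus depends on the length used. The summed level of the 4 ephrin-A genes was 34.8 and 36.0 CPM per kilobase in TNF_SnxB and TNF, against 19.5 and 21.1 in SnxB and DMSO. The summed level of the 3 ephrin-B genes ran otherwise, with 25.3 in TNF_SnxB and 28.2 in SnxB, the groups with Senexin B, against 33.1 in TNF and 34.2 in DMSO. These levels are not corrected for GC content, and TNF_SnxB library 1 by itself had 66.8% EFNA1, a ratio of 1.91 and sums of 37.4 and 26.7 for the ephrin-A and ephrin-B genes.

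The response to TNFα was tested in cells given Senexin B, TNF_SnxB against SnxB. The time in Senexin B may differ between these groups, since it is not given in full for TNF_SnxB. The 2 groups share no library with the contrast that drew attention to EFNA1, but the spread in the fit comes from all 12 libraries. EFNA1 and EPHA2 rose and EFNB2 fell. These were 3 of the 8 genes, 2 higher and 1 lower, where 14.2% of all tested genes were called, 7.38% higher and 6.83% lower, at an adjusted p under 0.05 (edgeR quasi-likelihood test with Benjamini-Hochberg adjustment over all tested genes, as for every adjusted p below). EFNA1 was chosen for a rise with TNFα, with earlier results of these data known. Its place in this count and its adjusted p-values below are therefore not independent of the choice. In bulk RNA, fewer cells with a transcript and less of it per cell cannot be told apart.

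EFNA1 had 63.4, 51.9 and 54.8 CPM in the TNF_SnxB libraries, against 17.3, 17.2 and 17.1 CPM in the SnxB libraries. Every library with TNFα lay far above every library without it. The log2 fold change was 1.71 (SE 0.0808, 3.27-fold, adjusted p = 1.1e-15), the 23rd highest of 14822. Leaving out any 1 of the 12 libraries gave 1.64 to 1.77 (adjusted p 2.01e-38 to 9.93e-13), the GC and length correction 1.82, and TNF_SnxB library 1 alone 1.88.

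EPHA2 had 54.3, 44.7 and 42.8 CPM in the TNF_SnxB libraries, against 36.0, 32.2 and 36.3 CPM in the SnxB libraries. The groups did not overlap, and TNF_SnxB library 1 was the highest. The log2 fold change was 0.43 (SE 0.0770, 1.34-fold, adjusted p = 0.000658), with 0.33 to 0.50 when 1 library was left out, 0.57 after the correction and 0.65 with library 1 alone. The call was kept in each of these settings, under the assumption above for library 1 alone.

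EFNB2 had 61.4, 60.4 and 62.6 CPM in the TNF_SnxB libraries, against 67.9, 71.2 and 70.2 CPM in the SnxB libraries, a log2 fold change of -0.18 (SE 0.0525, adjusted p = 0.0207). The groups did not overlap, which 22.7% of all tested genes shared and which held for EFNA1, EPHA2 and EFNB2 among the 8. The value was -0.17 after the correction (adjusted p = 0.0173). The call was lost with TNF_SnxB library 1 alone (-0.19, adjusted p = 0.285), with no low-count filter (adjusted p = 0.0834), with only the groups compared in the fit (adjusted p = 0.0864) and without SnxB library 2, SnxB library 3, TNF_SnxB library 2 or TNF_SnxB library 3, over a range of -0.20 to -0.17. The remaining 5 genes did not pass the test, at log2 fold changes of -0.24 for EFNB3, -0.07 for EFNB1, -0.06 for EFNA3, -0.03 for EFNA4 and -0.01 for EFNA5. After the correction they stood at -0.11 for EFNB3, 0.076 for EFNB1, 0.090 for EFNA3, 0.081 for EFNA4 and -0.092 for EFNA5. With library 1 alone they stood at -0.041 for EFNB3, 0.068 for EFNB1, -0.28 for EFNA3, 0.037 for EFNA4 and 0.0094 for EFNA5, and none passed in either setting. EFNB3 was called without TNF_SnxB library 1 (-0.32, adjusted p = 0.00730), when 35.7% of all tested genes were. The median over the 8 genes was -0.05, beside 0.00 over all tested genes.

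**Figure D2:**
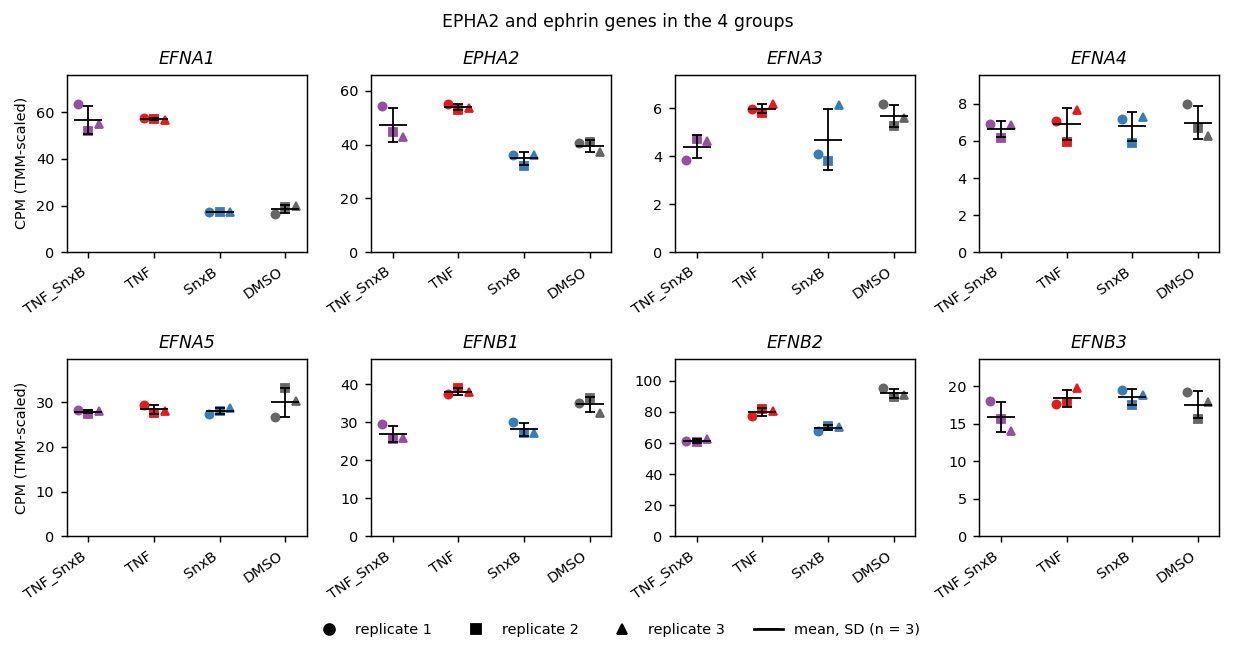
CPM on TMM-scaled library sizes (y axis, from 0) in each library of the 4 groups (x axis) for the 8 genes; symbols are replicates, and the line and bar are the mean and SD (n = 3). EFNA1 lies between 51.9 and 63.4 CPM with TNFα, against 16.6 to 19.9 without it, and EFNB2 is lowest in TNF_SnxB and highest in DMSO.

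Without inhibitor, the contrast of TNF with DMSO is the one in which EFNA1 was noticed. EFNA1 had 57.5, 57.1 and 56.7 CPM in the TNF libraries, against 16.6, 19.3 and 19.9 CPM in the DMSO libraries, a 3.07-fold difference (log2 1.62, SE 0.0742). EPHA2 had 55.0, 53.0 and 53.7 CPM in the TNF libraries, against 40.4, 41.1 and 37.1 CPM in the DMSO libraries (log2 0.44, SE 0.0690). Each gene had all its TNF libraries above all its DMSO libraries. EFNB2 had 77.2, 81.9 and 80.8 CPM in TNF, against 95.3, 89.5 and 91.1 CPM in DMSO (log2 -0.20, SE 0.0466), and EFNB1 had 37.3, 39.0 and 37.8 CPM in TNF, against 35.2, 36.3 and 32.5 CPM in DMSO (log2 0.15, SE 0.0633). The groups of these 4 genes did not overlap, as was so for 20.2% of all tested genes. The fit called 3 of the 8 genes beside 2.02% of all tested genes (2 higher beside 1.43%, 1 lower beside 0.594%). The genes were chosen on this contrast, so this count is not a test of them and nothing is read from it. EFNA3, EFNA4, EFNA5 and EFNB3 differed by -0.10 to 0.05 on the log2 scale with overlapping groups.

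**Figure D3:**
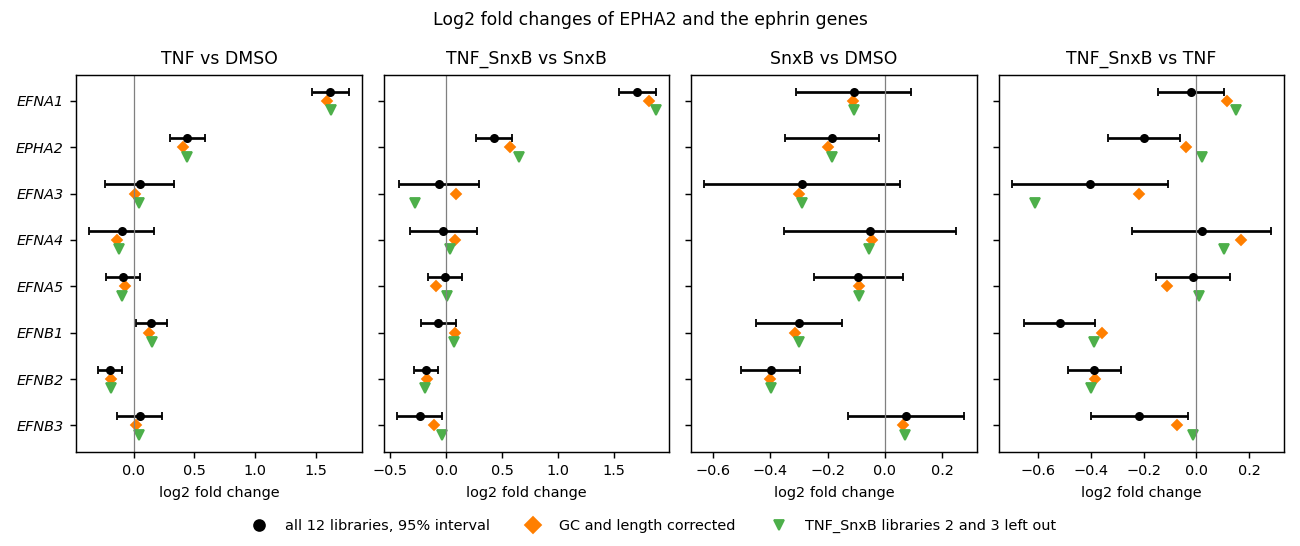
Log2 fold change (x axis) of each of the 8 genes (y axis) in the 4 pairwise comparisons, with an x range of its own in each panel. Black points are from all 12 libraries with 95% intervals, orange diamonds are after the GC and length correction and green triangles are with TNF_SnxB libraries 2 and 3 left out. In TNF_SnxB vs TNF the value of EPHA2 is -0.20, -0.04 and 0.02 in the 3 settings and that of EFNB2 -0.39, -0.38 and -0.40.

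Senexin B alone was compared with vehicle in resting cells, SnxB against DMSO, a comparison that shares its DMSO libraries with the contrast above. EFNB1 and EFNB2, which encode transmembrane ligands of EphB receptors, fell, and no gene of the 8 rose. These 2 of 8 stand beside 2.03% of all tested genes called, 1.69% lower and 0.344% higher. EFNB2 had 67.9, 71.2 and 70.2 CPM in the SnxB libraries, against 95.3, 89.5 and 91.1 CPM in the DMSO libraries, a log2 fold change of -0.40 (SE 0.0503, adjusted p = 3.42e-06). EFNB1 had 30.1, 27.1 and 27.3 CPM in the SnxB libraries, against 35.2, 36.3 and 32.5 CPM in the DMSO libraries, a log2 fold change of -0.30 (SE 0.0731, adjusted p = 0.0218). For both genes every SnxB library lay below every DMSO library. The call of EFNB1 was lost without DMSO library 1, DMSO library 2, SnxB library 2 or SnxB library 3 (-0.29, -0.27, -0.27 and -0.28, adjusted p 0.103 to 0.160), while that of EFNB2 was kept in each such fit. EFNB1 was called after the GC and length correction (-0.31, adjusted p = 0.000898) and with only the groups compared in the fit (-0.30, adjusted p = 0.00292). The summed level of the 6 HEK293 markers moved with the inhibitor too, at 714 to 761 CPM in SnxB, against 788 to 812 CPM in DMSO, and its part in the result was not tested.

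EPHA2 had 36.0, 32.2 and 36.3 CPM in SnxB, against 40.4, 41.1 and 37.1 CPM in DMSO. Its groups did not overlap, the third such gene of the 8, beside 20.4% of all tested genes, but the log2 fold change of -0.18 (SE 0.0797) did not pass the test (adjusted p = 0.330). EPHA2 did not pass after the correction (-0.20, adjusted p = 0.0513) or with only the groups compared in the fit (-0.19, adjusted p = 0.0935). EFNA1 had 17.3, 17.2 and 17.1 CPM in SnxB, against 16.6, 19.3 and 19.9 CPM in DMSO, with overlapping groups and a log2 fold change of -0.11 (95% interval -0.31 to 0.09, adjusted p = 0.749). EFNA3, EFNA4, EFNA5 and EFNB3 had log2 fold changes of -0.29, -0.05, -0.09 and 0.07, and none passed. The median over the 8 genes was -0.15, beside 0.00 over all tested genes.

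Senexin B before TNFα was compared with TNFα alone, TNF_SnxB against TNF, a comparison that shares its TNF libraries with the contrast in which EFNA1 was noticed. EFNB1 and EFNB2 fell again, EPHA2 and EFNA3 were also called lower, and no gene was called higher. These 4 of 8 stand beside 27.2% of all tested genes called, 13.9% lower and 13.3% higher. EFNB2 had 61.4, 60.4 and 62.6 CPM in the TNF_SnxB libraries, against 77.2, 81.9 and 80.8 CPM in the TNF libraries (log2 -0.39, SE 0.0486, adjusted p = 1.93e-06). EFNB1 had 29.4, 25.7 and 25.7 CPM in TNF_SnxB, against 37.3, 39.0 and 37.8 CPM in TNF (log2 -0.52, SE 0.0654, adjusted p = 2.05e-06). All TNF_SnxB libraries of both genes, library 1 included, lay below all TNF libraries. After the correction EFNB2 stood at -0.38 (adjusted p = 1.6e-10) and EFNB1 at -0.36 (adjusted p = 2.71e-06). With library 1 alone, its spread assumed, both were called (-0.40, adjusted p = 8.04e-06, and -0.39, adjusted p = 0.00657), when 2 of 8 genes were called beside 2.64% of all tested genes. The 6 HEK293 markers summed to 730 to 752 CPM in TNF_SnxB, against 825 to 834 CPM in TNF, and their part in the result was not tested.

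EPHA2 had 54.3, 44.7 and 42.8 CPM in TNF_SnxB, against 55.0, 53.0 and 53.7 CPM in TNF. TNF_SnxB library 1 lay within the TNF range and libraries 2 and 3 below it. The log2 fold change of -0.20 (SE 0.0665, adjusted p = 0.0266) moved to -0.04 after the correction (adjusted p = 0.689) and to 0.02 with library 1 alone (adjusted p = 0.952). The call was also lost with only the groups compared in the fit (adjusted p = 0.0782), without TNF_SnxB library 2 or 3 (-0.17 and -0.13) and without TNF library 1, 2 or 3 (-0.22 to -0.19, adjusted p 0.0648 to 0.0744), and kept without TNF_SnxB library 1.

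EFNA3, a ligand of EphA receptors with few counts here, had 3.84, 4.71 and 4.65 CPM in TNF_SnxB, against 5.98, 5.77 and 6.16 CPM in TNF. Its groups did not overlap, as for EFNB1 and EFNB2, beside 32.1% of all tested genes. The log2 fold change was -0.40 (SE 0.144, adjusted p = 0.0377), and the call was lost after the correction (-0.22, adjusted p = 0.393), with library 1 alone (-0.61, adjusted p = 0.212) and without TNF library 1, 2 or 3 or TNF_SnxB library 1, 2 or 3 (-0.45 to -0.33, adjusted p 0.0671 to 0.0927).

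EFNA1 had 63.4, 51.9 and 54.8 CPM in TNF_SnxB, against 57.5, 57.1 and 56.7 CPM in TNF, so that library 1 lay above and libraries 2 and 3 below the TNF range. The log2 fold change was -0.02 (95% interval -0.14 to 0.10, adjusted p = 0.846), 0.12 after the correction (adjusted p = 0.0790) and 0.15 with library 1 alone. EFNB3, a ligand of EphB3 and EphA4, had 18.0, 15.6 and 14.1 CPM in TNF_SnxB, against 17.6, 17.8 and 19.7 CPM in TNF (log2 -0.22, adjusted p = 0.0739). Its groups overlapped, and it stood at -0.072 after the correction and -0.014 with library 1 alone. It was called without TNF_SnxB library 1 (-0.29, adjusted p = 0.00396), when 44.8% of all tested genes were. EFNA4 and EFNA5 stood at 0.02 and -0.01, at 0.17 and -0.11 after the correction and at 0.10 and 0.011 with library 1 alone, and over all 12 libraries they kept between 5.87 and 7.99 CPM and between 26.7 and 33.1 CPM. The median over the 8 genes was -0.21, beside 0.00 over all tested genes.

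Whether Senexin B changed the response to TNFα was read from the interaction, the TNFα effect with Senexin B minus that without it. For EFNA1, whose TNFα effect chose the set, the difference was 0.09 (SE 0.116, 95% interval -0.15 to 0.33), 0.23 after the correction (SE 0.0973) and 0.26 with TNF_SnxB library 1 alone, given without a test. For EPHA2 it was -0.01 (SE 0.104, 95% interval -0.23 to 0.20, adjusted p = 0.950), 0.16 after the correction and 0.21 with TNF_SnxB library 1 alone. Of the other 7 genes none was called by edgeR, which called 2.5% of all tested genes (0.891% higher, 1.61% lower). DESeq2 gave an adjusted p for 2 of them, EFNB2 and EPHA2, and called neither. An unadjusted p under 0.05, which 23.5% of all tested genes had, was found for 2 of them, EFNB1 at -0.22 (adjusted p = 0.177) and EFNB3 at -0.29 (adjusted p = 0.186). Without TNF_SnxB library 1 both were called (-0.28, adjusted p = 0.0192, and -0.36, adjusted p = 0.0205), when 30% of all tested genes were, and after the correction they stood at -0.05 and -0.13, with -0.086 and -0.085 with library 1 alone. The remaining genes lay between -0.12 and 0.08.

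EFNA1 shares its locus with EFNA4 and EFNA3, which lie upstream of it on the same strand. In GENCODE 29 (GRCh38) EFNA4 spans chr1:155063731-155069553, EFNA3 chr1:155078872-155087538 and EFNA1 chr1:155127460-155134857. Of 45 genes annotated with a start within 250 kb of that of EFNA1, 26 others were tested. In TNF_SnxB against SnxB none of the 26 was called higher and 1, FAM189B, was called lower (-0.20, adjusted p = 0.0107), beside 6.83% of all tested genes, over a range of -0.43 to 0.14, beside 1.71 for EFNA1. FAM189B was not called after the correction (-0.027, adjusted p = 0.794), with library 1 alone (-0.065, adjusted p = 0.773), with only the groups compared in the fit, or without SnxB library 1 or TNF_SnxB library 2 or 3. The range of the 26 was -0.31 to 0.35 after the correction and -0.37 to 0.53 with library 1 alone, with MUC1 the highest in both. In TNF against DMSO none of the 26 was called and their range was -0.18 to 0.22, beside 1.62 for EFNA1. There 1 of the 26 was called higher after the correction and with only the groups compared in the fit, when 3.72% and 5.34% of all tested genes were called. SLC50A1, which starts 7.88 kb from the start of EFNA1 on the same strand, had the highest uncorrected value of the 26 in both these comparisons. It stood at 0.14 (adjusted p = 0.149) in TNF_SnxB against SnxB (0.17 after the correction, 0.094 with library 1 alone). In TNF against DMSO it stood at 0.22 (adjusted p = 0.0655). In TNF_SnxB against TNF 5 of the 26 were called lower and none higher, beside 27.2% of all tested genes called, with 1 lower and 1 higher after the correction and none with library 1 alone. Without TNF_SnxB library 1 the neighbours gave 10 lower and 1 higher there, when 44.8% of all tested genes were called. Without TNF_SnxB library 2 or 3 they gave 1 lower, when 13.5% and 12.5% of all tested genes were called. Without TNF library 1 or 2 they gave 3 lower, when 19.3% and 16.7% of all tested genes were called.

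**Figure D4:**
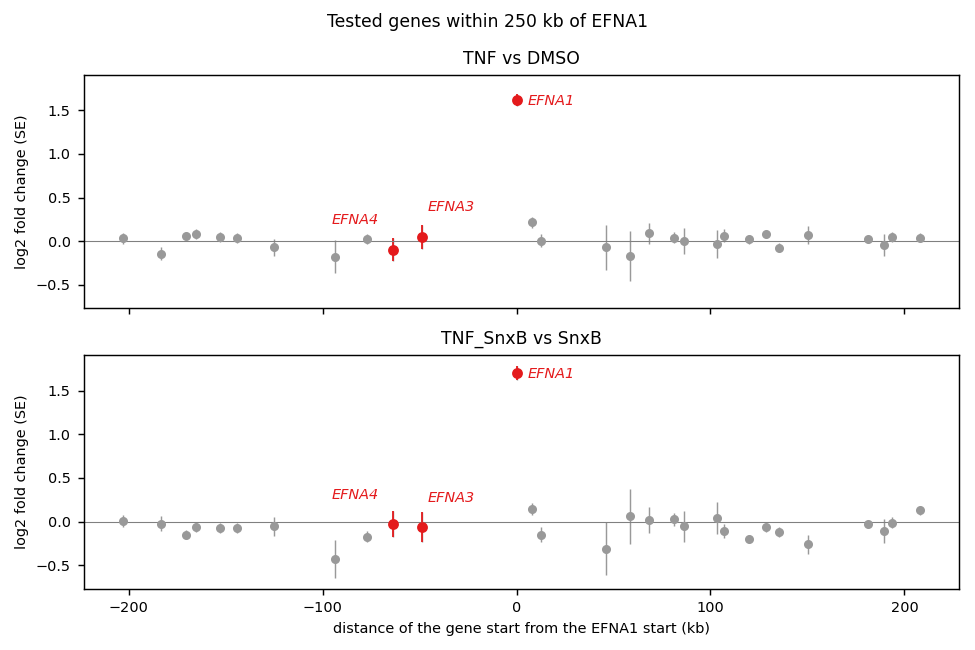
Log2 fold change with its SE (y axis) of tested genes by the distance of their start from the start of EFNA1 (x axis, kb), in TNF vs DMSO and in TNF_SnxB vs SnxB. EFNA1 stands at 1.62 and 1.71, the 26 other genes lie between -0.18 and 0.22 and between -0.43 and 0.14, and EFNA3 and EFNA4 lie at 0.05 and -0.10 and at -0.06 and -0.03.

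The other 5 genes lie apart from this locus: EFNA5 on chr5:107376889-107670895 (minus strand), EFNB1 on chrX:68828997-68842147 (plus strand), EFNB2 on chr13:106489731-106535662 (minus strand), EFNB3 on chr17:7705202-7711378 (plus strand) and EPHA2 on chr1:16124337-16156087 (minus strand). The annotation has a transcript, AL691442.1, that spans EFNA4 and EFNA3, antisense genes at EPHA2 (AL451042.2) and EFNB2 (AL138689.2), and an intronic gene, AL138689.1, in EFNB2. The strand setting of the counting is not given in the sources used here, so reads of these overlaps cannot be told apart from those of the 4 genes.

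By Pearson correlation of log2 CPM over the 12 libraries, among the 14134 genes whose mean reached 1 CPM, the genes most like EFNA1 included CSF1 (0.994), TNFAIP3 (0.993), BCL3 (0.992), IGSF3 (0.988) and NFKB2 (0.987). TNFAIP3 encodes the ubiquitin editor A20, NFKB2 and BCL3 encode a subunit and a cofactor of NF-kB, and CSF1 encodes a macrophage growth factor. TNFAIP3 averaged 36.4 CPM in TNF_SnxB and 42.5 in TNF, against 3.74 in SnxB and 3.70 in DMSO, and NFKB2 81.2 and 93.9, against 28.5 and 26.8. The genes most like EPHA2 were MSX1 (0.970), TAP1 (0.960), SIX5 (0.959), FAM53C (0.957), TNIP1 (0.954) and ELMSAN1 (0.952), and MSX1, a homeobox gene, averaged 47.2 CPM in TNF_SnxB and 63.7 in TNF, against 18.3 in SnxB and 23.1 in DMSO. These coefficients are descriptions: the points are the same 12 libraries in 4 groups, and with Spearman coefficients 1 of the 6 genes for EFNA1 and 2 of the 6 for EPHA2 stayed in the list.

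Among the other genes of the pathway, EFNA2 and 13 further Eph receptor genes were listed and 12 were tested, with EFNA2 (0.548 CPM in DMSO) and EPHA1 (3 counts in DMSO) below the filter. In TNF_SnxB against SnxB 1 of the 12 fell and none rose, beside 6.83% of all tested genes called lower and 7.38% higher. Without TNF_SnxB library 1, 3 of the 12 were called lower there, when 35.7% of all tested genes were called. This was EPHA4, a receptor that binds ephrins of both classes, with 22.1, 22.4 and 24.4 CPM in TNF_SnxB, against 28.1, 31.4 and 29.2 CPM in SnxB. The groups did not overlap, and the log2 fold change was -0.36 (SE 0.0745, adjusted p = 0.00230), -0.42 after the correction (adjusted p = 3.2e-05) and -0.43 with library 1 alone (adjusted p = 0.0249, its spread assumed). In TNF against DMSO, as a description, EPHA4 stood at -0.41 and EPHA7 at -0.22, the 2 genes of the list called there. Of all tested genes 2.02% were called there, 0.594% lower. In TNF_SnxB against TNF EPHA3 was called higher (0.27, adjusted p = 0.00150) and EPHB4, the main receptor of ephrin-B2, lower (-0.20, adjusted p = 0.00676). These 2 of 12 stand beside 27.2% of all tested genes called. Both calls were lost after the correction (0.12 and -0.04), and the values were 0.18 and -0.05 with library 1 alone. The call of EPHB4 was also lost without TNF_SnxB library 2 or 3 (-0.16 and -0.17, adjusted p = 0.0597 and 0.0596). In SnxB against DMSO and in the interaction edgeR called none of the 12. At an unadjusted p under 0.05 there were 0 and 2, beside 12.1% and 23.5% of all tested genes. DESeq2 called none of the 12 and 3 to which it gave an adjusted p.

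All 29 listed genes of forward signalling, the adaptors, exchange factors, Src-family kinases and other kinases that act below Eph receptors, were tested. None was called in SnxB against DMSO (1 at an unadjusted p under 0.05, beside 12.1% of all tested genes, and none by DESeq2). In TNF_SnxB against TNF 7 were called higher and none lower, a share near the 27.2% of all tested genes, and 1 of the 29 was called after the correction and none with library 1 alone. The 7 became 4 without TNF library 1 or 2, when 19.3% and 16.7% of all tested genes were called. They became 2 without TNF_SnxB library 3 (12.5% of all tested genes) and 12 higher with 4 lower without TNF_SnxB library 1 (44.8%). After the correction 12.1% of all tested genes were called. The kinases ROCK1 and ROCK2 stood at 0.24 (adjusted p = 0.000460) and 0.27 (adjusted p = 0.000510), the exchange factor VAV3 at 0.34 and the kinase YES1 at 0.19. The call of VAV3 was lost without TNF_SnxB library 3 (0.32, adjusted p = 0.0528), and that of YES1 without TNF_SnxB library 2 or 3 (0.15 and 0.14). In TNF_SnxB against SnxB 3 were called higher and 1 lower, near the 14.2% of all tested genes, with 1 lower after the correction and none with library 1 alone. The count there was 1 higher without any 1 SnxB library, when 4.99% to 6.66% of all tested genes were called. It was 0 without TNF_SnxB library 2 or 3 (3.82% and 3.43% of all tested genes) and 11 higher with 4 lower without TNF_SnxB library 1 (35.7%). After the correction 4.92% of all tested genes were called there. In the interaction ROCK1 (0.26, adjusted p = 0.0396) and ROCK2 (0.32, adjusted p = 0.0356) were called, 2 of 29 beside 2.5% of all tested genes, and neither was after the correction or with library 1 alone. The 9 listed genes of reverse signalling and ephrin shedding gave 3 called higher and 1 lower in TNF_SnxB against TNF, where 13.3% of all tested genes were called higher and 13.9% lower, among them PTPN13, a phosphatase that binds ephrin-B (0.20), ADAM10, a protease that cleaves ephrins (0.22), and SDCBP, the PDZ scaffold syntenin (0.18), with 1 called after the correction and none with library 1 alone. In TNF_SnxB against SnxB, with 14.2% of all tested genes called, 2 were called higher, SDCBP among them (0.24), and 1 lower, RGS3, a regulator of G-protein signalling that binds ephrin-B (-0.57, adjusted p = 0.0154). The call of RGS3 was lost without SnxB library 1 or 2 or TNF_SnxB library 2 or 3 (-0.56 to -0.49). Each of these left 1 of the 9 called, beside 3.43% to 6.66% of all tested genes. Without TNF_SnxB library 1, 5 of the 9 were called, when 35.7% of all tested genes were. None of the list was called after the correction or with library 1 alone. No gene of the reverse list was called in SnxB against DMSO or in the interaction by edgeR or, of the 9 and 5 given an adjusted p, by DESeq2. At an unadjusted p under 0.05 there were 0 and 3, beside 12.1% and 23.5% of all tested genes.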

How the data were processed

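The deposited values of the 12 libraries are unnormalised counts, whole numbers by gene symbol with 1 column per library, with RNA prepared by a TruSeq RNA kit per the labels' protocols. Per the submitters' processing notes, the tools were STAR 2.4, SAMtools 1.2 and featureCounts of Subread 1.4.6, with genome build hg38 (GRCh38). Annotation and strand setting: not given in the sources used here. Every column was mapped to a sample by its title.

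From the counts, filterByExpr chose the genes, TMM set the scaling, and edgeR fitted quasi-likelihood models with group means over all 12 libraries. Comparisons were tested two-sided, with Benjamini-Hochberg adjustment of p-values over the 14822 tested genes, and an adjusted p under 0.05 made a call. The labels call the replicates biological, and p-values measure the spread between these samples. The biological coefficient of variation was 3.49%, from 1 spread shared by the 4 groups. Between pairs of libraries in a group, chi-square per degree of freedom, near 1 for counting error alone, differed by group. It was 1.06 to 1.15 in TNF, 1.10 to 1.12 in SnxB, 1.30 to 1.54 in DMSO and 1.20 to 5.34 in TNF_SnxB. Replicates of TNF and SnxB thus differed by little more than counting error. Library totals put 3 counts, taken as a floor, at 0.0589 to 0.345 CPM, which covers counting error only. CPM are counts scaled to 1000000 on TMM-scaled library sizes, and intervals cover 95%. Gene positions, exon lengths and the GC content of the longest transcript of each gene came from GENCODE 29, matched by symbol for 90.6% of tested genes. The GC and length correction used offsets per library from loess fits.

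The genes, the pathway and marker lists and the tests were chosen with earlier results of these data known. The rule for named genes took all 8 genes, up to 4 called members of each pathway list with the smallest adjusted p, called neighbours within 250 kb of EFNA1, and the 6 genes most like EFNA1 and EPHA2 in log2 CPM (prior count 2). Of the genes most like EFNA1, 1 is not reported here. EPHA7 and SLC50A1 were named after their values were seen. Alternatives were the replicate number as a block, the GC and length correction, both together, fits of only the groups compared, no low-count filter, DESeq2, size factors by median of ratios, TNF_SnxB libraries 2 and 3 left out, TNF library 2 thinned to 10465465 counts, and each library left out. Applying them to the pathway lists and to the neighbours of EFNA1, and leaving out libraries of groups not compared, was added after seeing the data. The tests were run on simulated data with planted changes. The simulated counts held no GC-dependent shift like that of TNF_SnxB libraries 2 and 3, so they do not show how the tests behave under it. Versions were DESeq2 1.42.0 and edgeR 4.0.16 in R 4.3.3, and matplotlib 3.10.9 in Python 3.11.15.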

Additional observations from a re-analysis of the deposited data

Results flagged for a closer look

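The response to TNFα differed between cells with and without Senexin B for 2 of the 29 genes of the forward signalling list, by the test of the difference itself, beside 2.5% of all tested genes called. ROCK1 averaged 102 ± 4.23 CPM in TNF_SnxB and 86.8 ± 1.96 CPM in TNF, and 96.1 ± 1.91 CPM in SnxB and 97.5 ± 1.15 CPM in DMSO (SD, n = 3 each). Its interaction was 0.26 on the log2 scale (SE 0.0657, adjusted p = 0.0396). ROCK2 averaged 78.5 ± 5.80 CPM in TNF_SnxB and 65.3 ± 0.866 CPM in TNF, and 69.7 ± 3.86 CPM in SnxB and 72.0 ± 0.504 CPM in DMSO, with an interaction of 0.32 (SE 0.0777, adjusted p = 0.0356). After the GC and length correction the values were 0.11 (adjusted p = 0.498) for ROCK1 and 0.17 (adjusted p = 0.297) for ROCK2. The call of ROCK1 was lost without any 1 of 11 libraries (0.24 to 0.28, adjusted p 0.0553 to 0.144), and that of ROCK2 without any 1 of 10 (0.27 to 0.35, adjusted p 0.0682 to 0.121). With TNF_SnxB library 1 alone they were 0.17 (adjusted p = 0.610) and 0.19 (adjusted p = 0.632).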

How the results depend on the processing

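Of the 8 genes, the rise of EFNA1 and EPHA2 in TNF_SnxB against SnxB and the fall of EFNB2 in SnxB against DMSO and in TNF_SnxB against TNF were called under each alternative run, as was that of EFNB1 in TNF_SnxB against TNF. The causes of the changes below were not tested. The count of genes called among the 8 in TNF_SnxB against TNF, 4, was 2 after the GC and length correction, 2 with the replicate block added to it and 2 with TNF_SnxB libraries 2 and 3 left out. Leaving out 1 library gave 2 to 4 there, 1 to 2 in SnxB against DMSO and 0 to 2 in the interaction.

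Counts over all tested genes moved more. They are given for TNF vs DMSO, SnxB vs DMSO, TNF_SnxB vs TNF, TNF_SnxB vs SnxB and the interaction, where the reported counts were 300, 301, 4029, 2106 and 370. They were 551, 663, 1791, 729 and 50 after the correction, 548, 698, 1804, 760 and 69 with the block added, and 858, 864, 403, 219 and 19 with TNF_SnxB libraries 2 and 3 left out. With only the groups compared the 4 pairwise counts were 776, 742, 2442 and 504. The interaction count was 711 with no low-count filter and 736 with the block. Leaving out 1 library gave 177 to 874, 172 to 879, 1869 to 6769, 512 to 5391 and 3 to 4534, with the highest count of each without TNF_SnxB library 1. The share of calls that were higher moved from 16.9% to 27.1% in SnxB vs DMSO and from 49.0% to 31.4% in TNF_SnxB vs TNF after the correction.

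Signs turned for values that did not pass the test or were not tested, except for EPHA2 and YES1 in TNF_SnxB vs TNF. After the correction, and then with the block added, TNF_SnxB vs TNF gave 0.12 and 0.11 for EFNA1. TNF_SnxB vs SnxB gave 0.090 and 0.083 for EFNA3, 0.081 and 0.078 for EFNA4, and 0.076 and 0.078 for EFNB1. The interaction gave 0.083 and 0.052 for EFNA3, -0.023 and -0.020 for EFNA5, and 0.16 and 0.15 for EPHA2. With TNF_SnxB libraries 2 and 3 left out, TNF_SnxB vs TNF gave 0.15 for EFNA1, 0.011 for EFNA5, 0.021 for EPHA2 and -0.0029 for YES1, TNF_SnxB vs SnxB gave 0.037 for EFNA4, 0.0094 for EFNA5 and 0.068 for EFNB1, and the interaction gave -0.00062 for EFNB2 and 0.21 for EPHA2. For EFNA4 in TNF_SnxB vs TNF, DESeq2 gave -0.013, the replicate block -0.034 and TNF library 2 thinned -0.12, and thinning gave -0.065 in the interaction. No low-count filter gave 0.0098 for EFNA5 in TNF_SnxB vs SnxB.

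Leaving out 1 library gave ranges across 0 for EFNA4 in SnxB vs DMSO (-0.13 to 0.059). In TNF vs DMSO, which is not tested, it did so for EFNA4 (-0.18 to 0.081) and EFNB3 (-0.021 to 0.12), and with TNF library 2 thinned EFNA4 stood at 0.038 there. In TNF_SnxB vs TNF it did so for EFNA1 (-0.093 to 0.039), EFNA4 (-0.16 to 0.089) and EFNA5 (-0.044 to 0.0060). In TNF_SnxB vs SnxB it did so for EFNA3 (-0.21 to 0.18), EFNA4 (-0.13 to 0.035) and EFNA5 (-0.024 to 0.0086). In the interaction it did so for EFNA3 (-0.26 to 0.13), EFNA4 (-0.11 to 0.15), EFNB2 (-0.015 to 0.035) and EPHA2 (-0.10 to 0.054).

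The labels give each group replicates 1 to 3 without saying that a number marks a shared batch. Deviations of same-numbered libraries from their group means correlated at -0.0402 to 0.0941 over 18 pairs, none over 0.1. Pairs with different numbers correlated at -0.153 to 0.0991, and 6 of 12 libraries correlated best with their own number. Whether a number marks a shared batch is not decided by these correlations, because each deviation is taken from a mean of only 3 libraries. With the replicate block EFNB3 was called in TNF_SnxB against TNF (-0.24, adjusted p = 0.0419), and no other call among the 8 genes changed. Differences of EFNA3 and EFNA4, with 35 to 300 counts in a library, are the least precise.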
